A study of Mus musculus with 36 samples.

Results

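Far peaks are the sites of open chromatin in this series that lie in long stretches without a protein-coding promoter. They were chosen by position alone, as peaks of the deposited count table on chromosomes 1 to 19 whose midpoint was more than 100 kb from the transcription start site (TSS) of every protein-coding transcript in GENCODE on GRCm39, with a start above 10 Mb. The rule held for 6047 of 71509 peaks (8.46%). ATAC-seq, which maps open chromatin by where a transposase can insert adapters, was done on CD4 T cells of mice in 12 groups with 3 libraries each. One line carried a floxed HP1α allele deleted in the whole animal by CMV-cre, the other an HP1γ allele deleted in T cells by Cd4-cre, and each knockout (KO) was set against its own wild-type (WT) littermates on a mixed 129/Sv and C57BL/6 background. Naive cells came straight from the donors by negative selection. Conventional T cells (Tconv) were recovered 3 weeks after transfer into lethally irradiated hosts, C57BL/6J or CD45.1+ B6, that had received C57BL/6J and B6D2F1 marrow. They had been transferred alone or together with expanded WT regulatory T cells (Treg), and were sorted from the spleen as Vβ6+ cells. By the study's methods the animals were sex-matched and aged 6 to 12 weeks. The labels do not say what a replicate number stands for, so that all p-values measure the spread between libraries, which may be technical.

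Enhancers switch genes on from a distance, and the long gaps around developmental regulators such as Bcl11b, Maf, Id2 and Myc are known to hold many of them. Other long gaps, the gene deserts around neuronal adhesion genes and large tissue-specific genes, are packed as compact late-replicating chromatin in most cells. HP1α (Cbx5) and HP1γ (Cbx3) bind histone H3 that is methylated on lysine 9 and are known for their part in keeping such chromatin compact. The antigen receptor loci form another kind of gap, because their gene segments are not annotated as protein-coding genes and stretch over long distances.

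Windows of 300 bases about the midpoint of 5 far peaks are shown, because these peaks led the rankings for opening and closing on activation, for a gain and a loss in HP1γ KO cells, and for the level in naive cells. They were read from GRCm39, plus strand, and capitals mark every match to the 7 short motifs searched on both strands, which were AP-1 (TGANTCA), RUNX (TGTGGT), ETS (CAGGAAGT), TCF/LEF (CTTTGAT), NFAT (TGGAAAA), KLF (CCACNCCC) and CTCF (AGGNGGCA). Each peak is called by the coding gene with the nearest TSS, which is a name and not a target.
Sulf2 peak, opened, chr2:166106790-166107089: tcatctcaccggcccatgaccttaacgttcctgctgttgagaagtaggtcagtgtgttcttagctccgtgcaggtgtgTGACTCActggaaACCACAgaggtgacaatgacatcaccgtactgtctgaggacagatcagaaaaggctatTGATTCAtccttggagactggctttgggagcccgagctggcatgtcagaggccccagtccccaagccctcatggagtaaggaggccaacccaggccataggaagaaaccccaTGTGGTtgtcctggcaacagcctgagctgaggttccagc
Dad1 peak at the delta constant segment, closed, chr14:54384980-54385279: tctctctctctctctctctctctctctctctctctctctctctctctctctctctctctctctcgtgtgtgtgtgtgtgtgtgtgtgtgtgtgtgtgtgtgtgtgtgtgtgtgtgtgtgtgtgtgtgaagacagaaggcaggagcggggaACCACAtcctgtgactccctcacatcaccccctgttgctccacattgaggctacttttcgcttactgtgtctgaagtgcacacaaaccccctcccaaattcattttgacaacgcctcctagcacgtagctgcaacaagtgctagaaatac
Hpcal1 peak, higher in HP1γ KO, chr12:17931790-17932089: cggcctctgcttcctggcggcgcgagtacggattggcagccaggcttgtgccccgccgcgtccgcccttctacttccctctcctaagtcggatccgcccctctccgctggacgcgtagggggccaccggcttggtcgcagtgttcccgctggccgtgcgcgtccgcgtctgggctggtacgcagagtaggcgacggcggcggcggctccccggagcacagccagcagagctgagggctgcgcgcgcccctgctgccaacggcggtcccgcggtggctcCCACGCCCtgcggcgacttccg
Trpm1 peak, lower in HP1γ KO, chr7:63698870-63699169: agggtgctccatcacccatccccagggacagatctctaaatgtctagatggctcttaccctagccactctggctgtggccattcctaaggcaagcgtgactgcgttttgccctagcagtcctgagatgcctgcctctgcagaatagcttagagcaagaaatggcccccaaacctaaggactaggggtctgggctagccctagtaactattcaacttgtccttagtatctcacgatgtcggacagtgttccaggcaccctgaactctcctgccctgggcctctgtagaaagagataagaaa
Bcat1 peak, highest level, chr6:144616305-144616604: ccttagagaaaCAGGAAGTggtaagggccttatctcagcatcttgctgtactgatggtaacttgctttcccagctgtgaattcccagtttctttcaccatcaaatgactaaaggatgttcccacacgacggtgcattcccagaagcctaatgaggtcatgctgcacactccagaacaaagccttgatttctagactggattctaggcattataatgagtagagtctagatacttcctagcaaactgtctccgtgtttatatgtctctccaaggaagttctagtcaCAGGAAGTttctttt
The Sulf2 window held AP-1 letters at 2 places and RUNX letters at 2 places. The Dad1 window opened with a run of simple repeats and held RUNX letters at 1 place. The GC-rich Hpcal1 window held KLF letters at 1 place, the Bcat1 window held ETS letters at 2 places, and none of the 7 motifs lay in the Trpm1 window. A match is a description of the letters and not a site of binding.

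Far peaks were narrow, AT-rich and weakly open. Their median distance to a coding TSS was 166 kb, with quartiles at 125 and 250 kb and a maximum of 1800 kb. The median width was 570 bp, against 630 bp in the 48515 other distal peaks, which lay between 1 and 100 kb from a coding TSS within the same limits on chromosome and start, and 1890 bp in the 12005 promoter peaks within 1 kb of one. Median GC content was 45.9%, against 47.2% and 53.5%. Median accessibility over all libraries was 0.59 as log2 CPM, against 1.12 in other distal peaks and 5.03 at promoters. CPM is the usual per-million count scaled to a library's reads in peaks, and these log2 values were also normalized between the libraries of each line. When these sets together were split by mean level into 5 classes of equal size, the lowest class took 33.1% of the far peaks and 22.2% of the other distal peaks.

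By position, 1823 far peaks (30.1%) lay in introns of noncoding genes, 1760 (29.1%) between genes and 1752 (29%) in introns of coding genes. Exons of noncoding genes held 412 (6.81%), exons of coding genes 78 (1.29%), and 222 (3.67%) lay within 50 kb of an antigen receptor gene segment, where only 0.202% of the other distal peaks lay. Within 1 kb of a noncoding TSS there were 1000 far peaks (16.5%), against 11.1% of the other distal peaks. Had the distance been taken to any annotated TSS, 165 peaks would have remained, and the rest have the start of a transcript that codes for no protein within 100 kb. The far peaks were clustered. They had 1243 nearest coding genes between them, and the 163 genes with at least 10 far peaks accounted for 3065 of them (50.7%). Chromosome 12 held the most, 569, which were 18.9% of its peaks, and chromosome 4 had the smallest share, 4.10%.

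Libraries held 1.49 M to 96.8 M reads in peaks, with a median of 54.8 M. The study had left out 3 HP1α libraries with Treg for low signal (WT replicate 3, KO replicates 2 and 3), which leaves 2 WT libraries and 1 KO library there, and the comparisons below leave them out as well unless stated. Peaks at the CD4 T cell genes Cd3e, Cd3g, Cd4, Thy1 and Cd5 were open in every group. No peak was found for the B cell markers Cd79a and Ms4a1, for 2 of 4 myeloid, 2 of 2 NK cell and 1 of 3 erythroid markers. The peak at Cd8b1, a CD8 gene, had group medians of 28.7 to 30.9 CPM in naive cells and 2.85 to 8.88 CPM after transfer. The promoter peaks of the deleted genes stayed open (Cbx5, median 168 CPM in WT and 167 in KO; Cbx3, 171 and 170) and check nothing about the deletion, while the Cd4 promoter peak stood at 468 to 704 CPM in the HP1γ KO libraries and 86.8 to 109 in their WT, in the line that carries Cd4-cre. In bulk libraries a smaller share of cells with an open site and a less open site per cell cannot be told apart.

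The far peaks with most reads per kb stood above the median promoter peak. The Bcat1 peak (chr6:144616011-144616900) whose window is shown above lies in an intron of Sox5, 362 kb from the Bcat1 TSS. It had 75.5 CPM per kb in naive WT cells, averaged over both lines, and 42.6 in WT Tconv, the highest far peak in both. Next in naive cells were a peak in Ttc28 (chr5:111325531-111327360, 48.1 CPM per kb) and a peak 340 kb upstream of Cblb, the ubiquitin ligase that restrains T cell activation (chr16:51510481-51512240, 47.2). In Tconv the next were a peak in the noncoding gene Gm2682 (41.7) and a peak in an intron of Prkch, a protein kinase C gene (39.4). The median far peak had 3.52 CPM per kb in naive cells and 2.98 in Tconv, the median other distal peak 3.98 and 4.45, and the median promoter peak 16.4 and 16.3. The most distant far peak (chr1:101828851-101831280), 1800 kb from the TSS of Cntnap5b and in an intron of the noncoding gene Gm70362, was open in every library at 16.6 to 48.5 CPM and was called in none of the 12 comparisons.

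Activation, the comparison of WT Tconv with WT naive cells, moved most far peaks, and more of them closed than in the rest of the distal genome. In the HP1γ line, 1786 far peaks (29.5%) were called higher in Tconv, against a background of 24.5% of all peaks, and 2165 (35.8%) were called lower, against 22%. Here and below, called means a Benjamini-Hochberg p under 0.05 in edgeR's quasi-likelihood test together with a log2 fold change beyond 1 in size. Among other distal peaks the shares were 27.7% higher and 23.5% lower. In the HP1α line, 1899 (31.4%) were higher against a background of 24.9%, and 1863 (30.8%) lower against 17.5%, with 28.1% and 18.3% among other distal peaks. Both lines together called 1606 far peaks (26.6%) higher against 21.5% of all peaks, and 1766 (29.2%) lower against 16.4%, while 2 were called in opposite directions. Without WT Tconv replicate 1 the HP1α line had 2118 far peaks higher and 1087 lower, and with DESeq2 2096 and 1391. The far peaks called higher in both lines are named opened below, and those called lower closed. The median log2 fold change was -0.14 in the HP1γ line and -0.08 in the HP1α line, against 0.10 and 0.13 in other distal peaks. Only Tconv had been transferred into irradiated hosts and selected for Vβ6. Activation, the transfer, the sort and the drop in CD8 signal given above cannot be told apart. The peak at Pax5, a B cell factor gene, went from 2.44 to 3.15 CPM in naive cells up to 4.16 to 5.6 CPM in Tconv in the HP1γ line and from 2.11 to 3.05 up to 4.90 to 7.36 CPM in the HP1α line, and its part in the result was not tested.

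**Figure D1:**
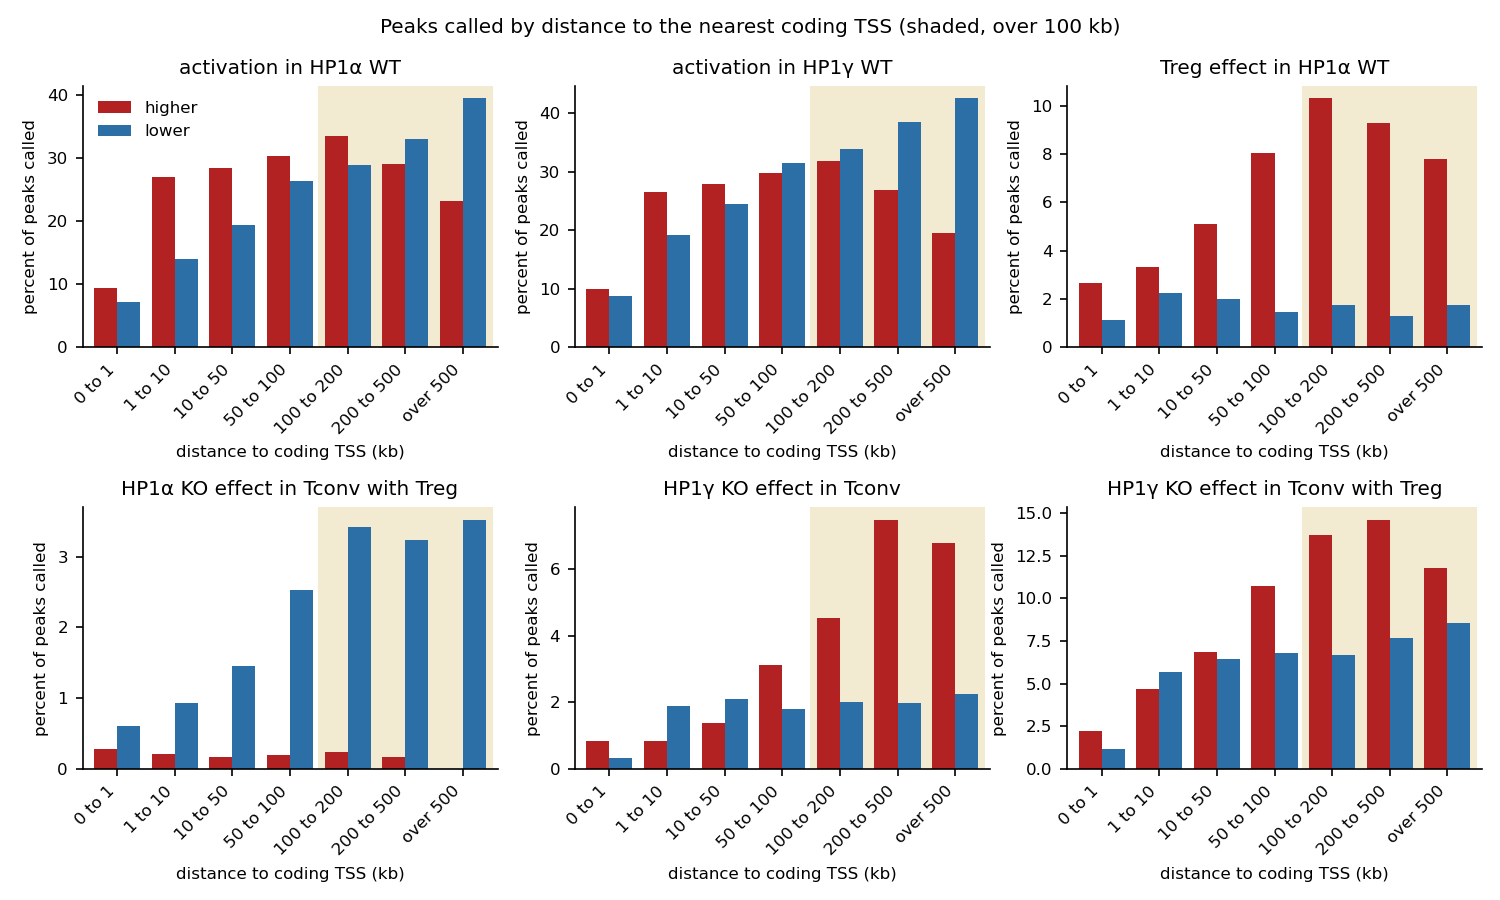
Percent of peaks called (vertical axis) in bins of distance to the nearest coding TSS in kb (horizontal axis), for 6 comparisons, with red bars for peaks higher and blue bars for peaks lower in the second state named (Tconv, with Treg, or KO); vertical scales differ between panels. The shaded bins are over 100 kb and hold the far peaks, and in the HP1γ line the share lower on activation goes from 8.73% of promoter peaks to 42.5% of peaks beyond 500 kb.

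The share of closing peaks went up with distance over the whole range. In the HP1γ line it was 8.73% within 1 kb, 19.2% from 1 to 10 kb, 24.5% from 10 to 50 kb, 31.5% from 50 to 100 kb, 33.9% from 100 to 200 kb, 38.4% from 200 to 500 kb and 42.5% of the 398 peaks beyond 500 kb. The share of opening peaks was highest at 31.8% from 100 to 200 kb and fell to 19.6% beyond 500 kb. Just inside the threshold, from 100 to 110 kb, 36.2% closed and 29.2% opened, and just outside, from 90 to 100 kb, 33.2% and 27.4%. Peaks of low level were more often far, so level was held apart. Within each of the 5 classes of level, more far than other distal peaks closed in the HP1γ line, with 33.7% against 25.7% in the lowest class and 17.7% against 9.11% in the highest. Opening was less frequent among far peaks in the lowest class (37% of far and 44.7% of other distal peaks) and in the highest (11.9% and 14.1%), and more frequent in the other three. Within 5 classes of GC content, far peaks also closed more often in each, with 32.8% against 22.4% in the lowest and 38.6% against 19.7% in the highest. By place, closing was called for 34.3% of the far peaks between genes, 37.1% in introns of coding genes and 34.1% in introns of noncoding genes.

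The 5 far peaks opened with the smallest p over both lines rose from near 0 or from a low level. The Sulf2 peak (chr2:166106431-166107450), between genes and 109 kb upstream of Sulf2, which encodes an extracellular heparan sulfate sulfatase, had 0.108, 0.124 and 0.126 CPM in the naive HP1α WT libraries and 17.3, 12.3 and 13.7 in Tconv. In the HP1γ line it had 0.156, 0.025 and 0.0997 CPM in naive WT cells and 17.2, 20.8 and 18.6 in Tconv. Every Tconv library was far above every naive one, and the log2 fold change was 6.77 ± 0.31 (SE) and 7.73 ± 0.39 in the HP1α and HP1γ lines, with adjusted p of 5.55e-11 and 2.98e-12. The Eif3h peak (chr15:51593021-51595090), 135 kb from the gene of a translation initiation factor subunit, went in the HP1γ line from 0.596, 0.325 and 0.266 to 57.4, 77.3 and 67.2 CPM. Its log2 fold change there was 7.52 ± 0.29, adjusted p = 6.41e-13, the only other of the 5 with a naive level under 1 CPM. A wide peak at chr16:49785301-49791920, 101 kb from Cd47, which encodes the ligand of the inhibitory receptor SIRPα, was already open in naive cells at 5.51, 4.32 and 4.09 CPM and reached 101, 123 and 132. Also opened were a peak in the noncoding gene Morrbid (chr2:128218501-128224560, log2 fold change 3.81 ± 0.20 in the HP1γ line, adjusted p = 9.72e-12) and one 372 kb upstream of Nfe2l3 (chr6:51036191-51038940, 4.51 ± 0.21, adjusted p = 2.94e-12).

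Of the 5 closed peaks ranked in the same way, 3 lay in the T cell receptor alpha and delta locus on chromosome 14, where Dad1 is the nearest annotated coding gene. The peak at the delta constant segment Trdc (chr14:54384501-54385760), whose window is shown above, had 9.51, 9.18 and 9.49 CPM in naive HP1γ WT cells and 0.246, 0.163 and 0.111 in Tconv, and in the HP1α line 7.14, 10 and 8.65 against 0.148, 0.305 and 0. The log2 fold changes were -5.63 ± 0.31 and -5.84 ± 0.35, adjusted p = 3.9e-12 and 1.27e-10. No Tconv library came near a naive one. The other 2 lay at Trdv2-2 (chr14:54198121-54199210, log2 fold change -4.76 ± 0.27 in the HP1γ line) and beside Trav14-1 (chr14:53790591-53792050, -3.51 ± 0.18). The last 2 of the 5 were a peak 155 kb from Zfp36l2, whose product speeds the decay of AU-rich mRNAs (chr17:84339371-84340750), which fell from 29.8, 29.8 and 29 to 7.41, 5.87 and 5.53 CPM, and a peak in an intron of Igf1r, nearest to Pgpep1l (chr7:67793601-67794760), which fell from 22.9, 23.8 and 23.4 to 3.08, 1.99 and 2.21 CPM. Both closed by 2.15 or more on the log2 scale in the HP1γ line without any overlap between groups, with adjusted p of 1.09e-10 and 4.64e-11.

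**Figure D2:**
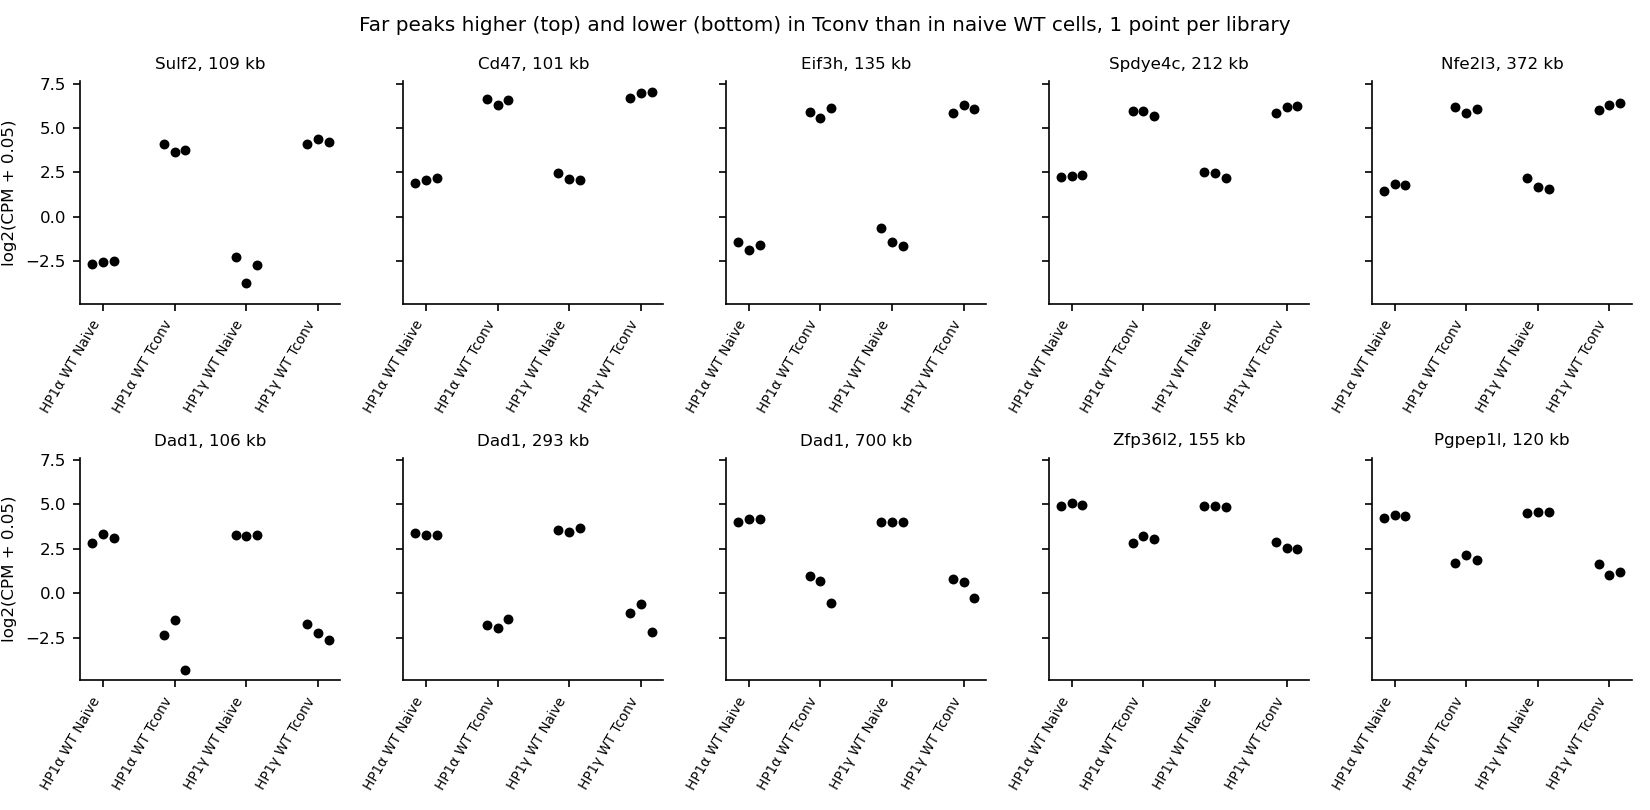
Accessibility as log2(CPM + 0.05) (vertical axis) of the 5 opened (top row) and 5 closed (bottom row) far peaks with the smallest p over both lines, in naive cells and Tconv of the WT groups of each line (horizontal axis), 1 point per library. In each panel the Tconv points stand apart from the naive points in both lines.

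Counts by nearest coding gene are given beside the 26.6% of all far peaks that opened and the 29.2% that closed. Around Maf, which encodes a transcription factor of IL-10 and helper cell programs, 41 of 51 far peaks opened and 0 closed over chr8:115816301-116606020, with a median log2 fold change of 2.57 in the HP1α and 2.51 in the HP1γ line. Summed over those peaks, naive HP1γ WT libraries had 228 to 241 CPM and Tconv libraries 369 to 384. Upstream of Id2, which encodes an inhibitor of E proteins, 34 of 49 opened and 2 closed, and the sum went from 168 to 182 CPM in naive to 534 to 606 CPM in Tconv. All 17 far peaks upstream of Itgb1, the beta1 integrin gene, opened, with medians of 3.75 and 4.61, and their sum went from 6.12 to 9.27 CPM up to 155 to 179 CPM. For Prdm1 (Blimp-1) 12 of 14 opened, for Ikzf2 (Helios) 12 of 15, for Eomes 8 of 15, for Dusp4, a MAP kinase phosphatase gene, 13 of 20, and for Zeb2, with far peaks 1190 to 1260 kb away, 4 of 4. No far peak closed for these genes except 2 at Dusp4 and 2 at Id2.

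Around other genes more far peaks closed than opened. For Bcl11b, needed for T cell commitment, 35 of 69 far peaks closed and 3 opened over chr12:106988071-107869150, and the sum went from 657 to 684 CPM in naive HP1γ WT cells to 496 to 516 CPM. For Satb1, a genome organizer of T cells, 22 of 34 closed and 2 opened, with a sum of 377 to 385 CPM in naive and 235 to 273 CPM in Tconv. For Foxo1, a factor of naive T cell homeostasis, 16 of 33 closed and 1 opened, for Runx1 16 of 23 and 1, for Lef1 6 of 10 and 0, and for Ptprc (CD45) 10 of 13 and 1. Neighbouring gaps could differ. On chromosome 8 the peaks between 115498081 and 115800080 are nearest to Wwox, an oxidoreductase gene, and 18 of 37 closed while 8 opened, next to the opened stretch of Maf. Mixed loci were Myc, with 21 of 59 opened and 7 closed, Ets1 with 14 and 5 of 35, Rora with 6 and 5 of 26, and Cog6, which follows Foxo1 on chromosome 3, with 5 and 10 of 41. For Bach2, a repressor of effector differentiation, 4 of 7 opened and 0 closed.

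**Figure D3:**
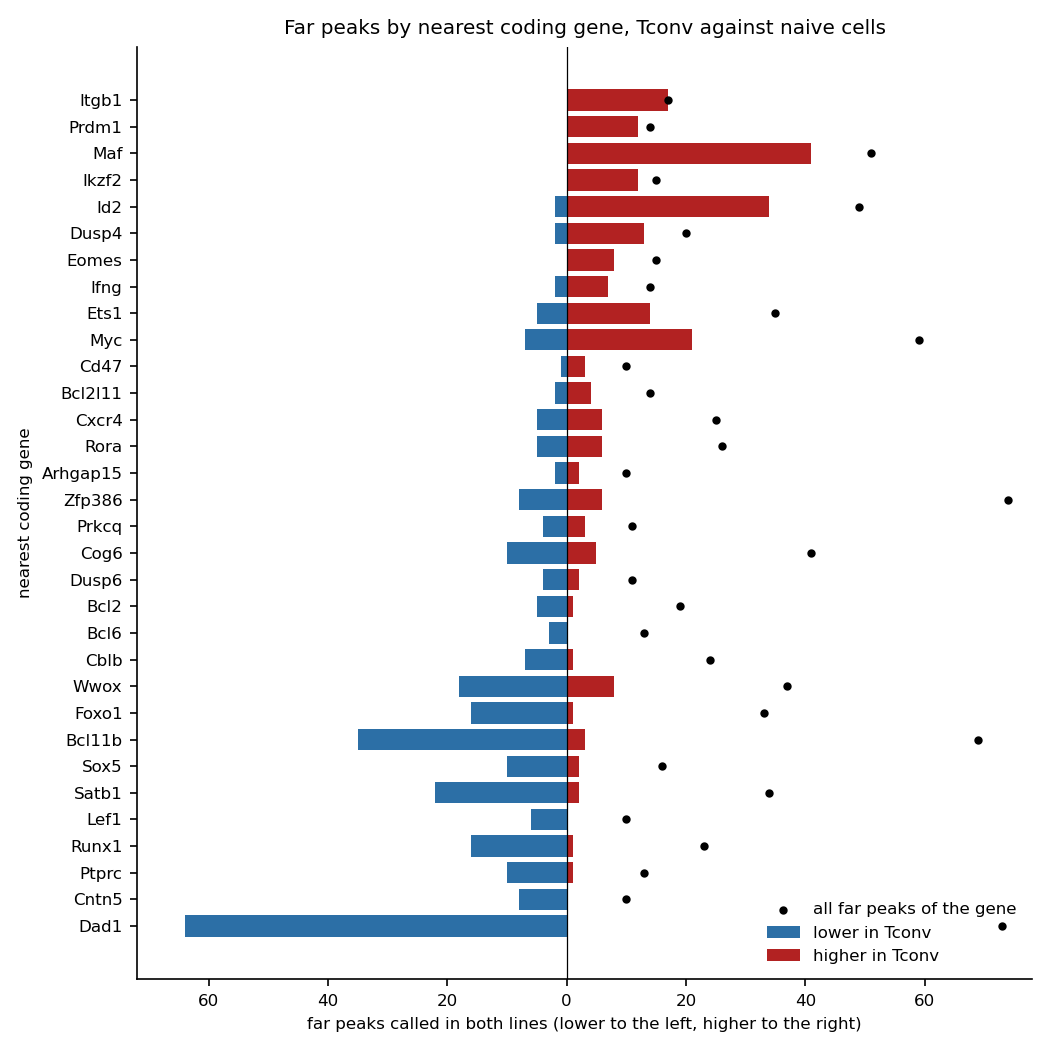
Number of far peaks (horizontal axis) called higher (red, to the right) or lower (blue, to the left) in Tconv than in naive WT cells in both lines, for each nearest coding gene (vertical axis) of the 10 with most far peaks or with at least 10 on the gene lists, sorted by the balance of both, and black dots give all far peaks of the gene. Maf, Id2 and Itgb1 extend to the right and Dad1, Bcl11b and Satb1 to the left.

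Antigen receptor loci contributed 222 far peaks. At the alpha and delta locus 77 of 101 closed and 0 opened, and the 73 of them that are nearest to Dad1 (chr14:53611801-54390600) went as a sum from 278 to 295 CPM in naive HP1γ WT cells to 39.9 to 59.9 CPM in Tconv. At the heavy chain locus, where 74 far peaks are named by the distant gene Zfp386, 14 of 99 opened and 8 closed. At the beta locus 5 of 10 opened and 2 closed, and at the gamma locus 5 of 10 opened and 0 closed. Rearrangement removes the DNA between joined segments at these loci, and in counts of reads accessibility and copy number cannot be told apart. Without the receptor loci 5825 far peaks were left.

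Lists of genes were compared in the same terms. Of 48 T cell transcription factor genes, 25 were nearest to at least 1 far peak, and 180 of their 489 far peaks opened (36.8%) and 123 closed (25.2%), beside 26.6% and 29.2% of all far peaks. Of 57 genes of receptors, adhesion and signalling in T cells, 18 had far peaks, and 67 of 220 opened (30.5%) and 53 closed (24.1%). Of 83 neuronal and adhesion genes of gene deserts, 27 had far peaks, and 11 of 79 opened (13.9%) and 44 closed (55.7%), with median log2 fold changes of -1.47 in the HP1α and -1.88 in the HP1γ line. Examples were Cntn5, an axonal contactin gene, with 8 of 10 closed, Sox5 with 10 of 16, and Pcdh7, a protocadherin gene, with 4 of 4, while Grik2, a glutamate receptor gene, had 2 of 3 opened.

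The shares of windows with a motif differed between opened and closed far peaks. AP-1, the factor family of Fos and Jun, is induced through the T cell receptor, while TCF/LEF factors such as Lef1 are known from naive T cells. AP-1 letters were in 26.1% of the opened and 8.04% of the closed windows, with 16.8% over all far peaks, 14.4% over other distal peaks and 13% over all 71509 peaks. NFAT letters were in 10.7% and 6.40% (8.63% of all far peaks), and RUNX letters in 42% and 33.5% (36%). The order was reversed for TCF/LEF letters, with 6.35% of opened and 11.9% of closed (8.0% of all far peaks), and for ETS letters, with 8.28% and 13.1% (10.3%). Opened and closed other distal peaks had AP-1 letters in 23.1% and 9.14% and TCF/LEF letters in 4.92% and 10.4%. Median GC content was 45.5% in opened and 46.1% in closed far peaks. These shares describe letters in the window, and say nothing about binding.

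Among reads in distal peaks, far peaks took 7.06 to 9.0% in every kept library. In WT cells the share was 8.58 ± 0.07% (SD, n = 3) in naive and 7.25 ± 0.14% in Tconv of the HP1γ line, and 8.29 ± 0.18% and 7.43 ± 0.42% in the HP1α line, without overlap between naive cells and Tconv. With Treg it was 7.69 ± 0.08% in HP1γ WT, again above every library without Treg, and 8.79 and 8.91% in the 2 kept HP1α WT libraries, against 7.08, 7.32 and 7.89% without. In HP1γ KO the share was higher than in WT in each of the 3 conditions without overlap, at 8.82 ± 0.16% in naive cells, 7.64 ± 0.14% in Tconv and 8.27 ± 0.16% when Treg were present. In HP1α KO it was 8.23 ± 0.16% in naive cells and 7.17 ± 0.16% in Tconv, which overlapped with WT in both, and 7.38% in the only kept library with Treg, with 8.19 and 7.86% in the left-out ones. With 3 libraries a side, an exact permutation test cannot go below p = 0.10, and none is given.

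**Figure D4:**
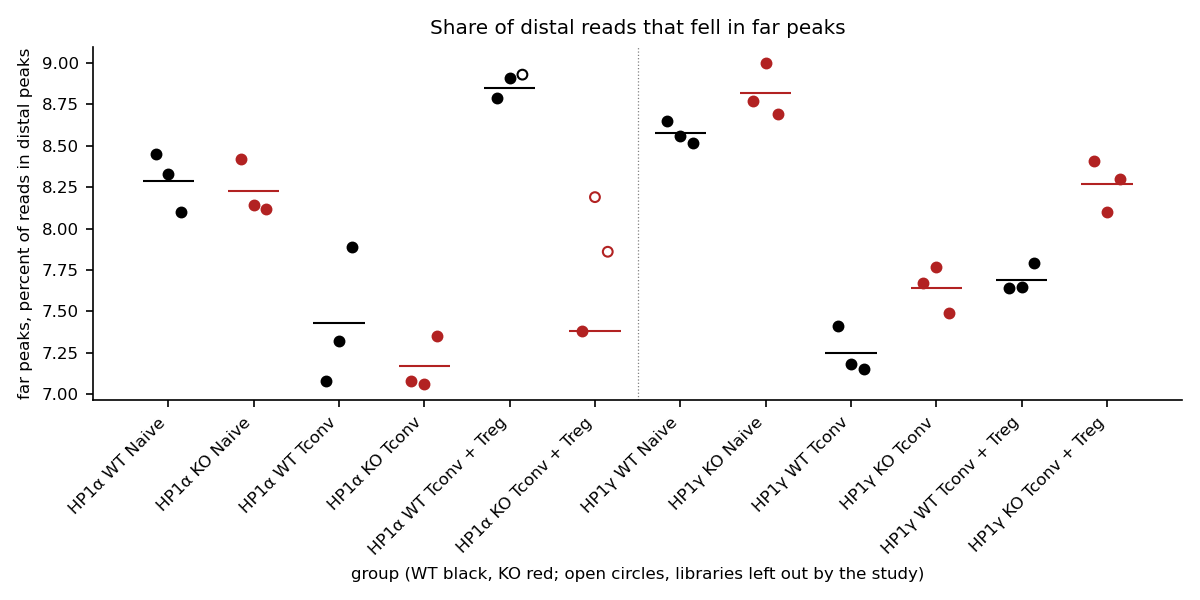
Percent of the reads in distal peaks that fell in far peaks (vertical axis) in the 12 groups (horizontal axis), 1 point per library (WT black, KO red) with the mean of the kept libraries as a bar and open circles for the 3 libraries left out by the study, on an axis that starts at 7%. The HP1γ KO points lie above those of HP1γ WT in all 3 conditions.

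The Treg comparison asked how Tconv recovered from hosts with Treg differed from Tconv recovered without. In HP1α WT cells 596 far peaks (9.86%) were higher with Treg, against a background of 4.92% and 4.84% of other distal peaks, and 98 (1.62%) were lower, against 1.84% and 2.03%. With log2 depth as a covariate 223 were higher and 27 lower, and with DESeq2 587 and 259. The median log2 fold change was 0.51 in far and 0.08 in other distal peaks. In HP1γ KO cells 755 (12.5%) were higher against 6.1% of all peaks, and 205 (3.39%) lower against 2.06%. Few were called in the remaining groups. In HP1γ WT cells 11 were higher and 5 lower (backgrounds of 0.0671% and 0.0699%), although the median over far peaks, 0.32, stood above that of other distal peaks, 0.08. An unadjusted p under 0.05 was found for 1514 of 6047 far peaks, beside 14522 of all 71508 peaks and 9210 of 48514 other distal peaks. Replicate numbers paired the libraries of that comparison, and with the number as a block 587 far peaks were higher and 63 lower. The count of 16 called became 0 without Treg replicate 1 or 3 or Tconv replicate 2, 1 without Tconv replicate 1, 108 without Treg replicate 2 and 120 without Tconv replicate 3. In HP1α KO cells, with 1 kept library, 31 were higher and 19 lower (0.264% and 0.284% of all peaks), 50 in all, with 78 without Tconv replicate 1 and 88 without Tconv replicate 3. The HP1α WT call rested on a pair of libraries of 12.7 M and 1.49 M reads. Of far peaks 11.5% were called in all, and 0 without WT Treg replicate 1, 7.24% without replicate 2 and 3.94% without WT Tconv replicate 1. With all 18 libraries 13.5% were called, and 1 peak without WT Treg replicate 1. The Pax5 peak had 13.9 and 21.5 CPM in these libraries and 4.90 to 7.36 CPM without Treg. The 5 CD4 T cell marker peaks summed to 275 and 327 CPM in them and to 392 to 479 CPM without Treg, with medians of 41 and 76.4 CPM at Cd3e and 17.1 and 40.9 CPM at Thy1. The naive T cell marker peaks Il7r and Tcf7 had medians of 27.9 and 237 CPM with and 60.5 and 309 CPM without Treg. In HP1γ KO cells the Pax5 peak had 7.86 to 10 CPM with and 4.76 to 6.44 CPM without Treg, and the medians of the T cell marker peaks other than Cd4 were lower with Treg (Cd3e 82.4 and 87.3 CPM, Cd3g 61.4 and 66.6, Thy1 27.7 and 34.6, Cd5 154 and 189), as were those of Il7r (23.9 and 45.8) and Tcf7 (241 and 316). The part of these markers in the result was not tested.

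Single far peaks that went up with Treg include the Arl4a peak (chr12:39698741-39699420), 389 kb from the gene of a small GTPase, with 0.296, 1.02 and 0.645 CPM in HP1α WT Tconv and 8.43 and 8.08 CPM with Treg, a log2 fold change of 4.14 ± 0.38 with adjusted p = 3.49e-06. The WT library left out by the study had 1.25 CPM. A peak in an intron of Tbck, nearest to Aimp1 (chr3:132496611-132497630), went from 3.06, 3.20 and 4.19 to 30.3 and 28.3 CPM, with 23.1 CPM in the left-out library (3.21 ± 0.25, adjusted p = 3.49e-06). In HP1γ WT cells the same peak had 3.09, 3.30 and 4.39 CPM without and 10.2, 7.24 and 6.69 CPM with Treg. Of peaks that fell, one in the noncoding gene Gm68896, nearest to Rplp1 (chr9:61586381-61590410), dropped from 99.3, 98.6 and 82.5 to 41.8 and 42.4 CPM in HP1α WT (-1.18 ± 0.21, adjusted p = 0.00231) and stood at 93.5, 123 and 90 CPM with Treg in HP1γ WT, against 110, 126 and 116 without. In HP1α KO cells the far peak with the smallest p was one that fell, in an intron of the myosin gene Myo16 (chr8:10549501-10551260), from 19, 20.9 and 16 to 1.87 CPM (-3.36 ± 0.31, adjusted p = 0.000138), with 6.46 and 7.16 CPM in the left-out libraries. A peak upstream of Map1b, the gene of a microtubule-associated protein, went from 8.67, 12.7 and 9.18 to 2.03 CPM (-2.37 ± 0.31, adjusted p = 0.00147), but the left-out libraries, at 7.30 and 11 CPM, overlap with those without Treg. The spread of these tests on 1 library with Treg comes from the other groups, and 0 far peaks were called with only the groups compared or with edgeR's earlier quasi-likelihood fit. The 2 Trps1 peaks led those that rose in HP1α KO cells, by 2.57 ± 0.28 and 1.62 ± 0.19 (adjusted p = 0.000488 and 0.000837), and they also rose in HP1γ KO cells. The one at chr15:50514731-50518620 had 20.8, 38.4 and 27.4 CPM in HP1γ KO Tconv and 79.2, 50.5 and 68.8 with Treg (1.26 ± 0.20, adjusted p = 0.00071). In HP1γ KO cells the leading peaks were in Smyd3, nearest to Kif26b (chr1:178852601-178853180), with 1.05, 1.93 and 1.08 CPM without and 7.92, 5.78 and 6.37 CPM with Treg (2.44 ± 0.23, adjusted p = 9.89e-06), and the Zc3h12c peak described below.

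Counts by locus are given beside the shares of all peaks higher and lower with Treg, 4.92% and 1.84% in HP1α WT and 6.1% and 2.06% in HP1γ KO. Of the 15 far peaks of Ikzf2, 7 were higher with Treg in HP1α WT and 3 in HP1γ KO, and of the 25 of the chemokine receptor gene Cxcr4, 7 and 11, with 0 lower in both. Far peaks of the heavy chain locus fell in HP1γ KO, 29 of 99, and of Id2, 14 of 49 fell and 2 rose. In HP1α WT 4 and 8 fell at these 2 loci, while 0 and 2 rose. Leaving out HP1γ KO Treg replicate 1 brought the share of far peaks called in HP1γ KO from 15.9% to 6.30% (341 higher and 40 lower), and leaving out Tconv replicate 1 to 10.3% (512 and 110). Without Tconv replicate 3 there were 495 and 161, and without Treg replicate 2 the share rose to 23.3% (1040 and 366).

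In HP1γ KO cells more far peaks were called higher than lower in each condition, and a larger share was called higher than among other distal peaks. In naive cells 25 far peaks (0.413%) were higher in KO, against a background of 0.133%, and 1 was lower, against 0.00699%. In Tconv 336 (5.56%) were higher against 1.69% of all peaks and 1.41% of other distal peaks, and 122 (2.02%) lower against 1.66% and 1.98%. With Treg 838 (13.9%) were higher against 6.48% and 6.58%, and 430 (7.11%) lower against 5.38% and 6.20%. Replicate numbers paired the libraries with Treg, and with the number as a block 864 were higher and 655 lower. The median log2 fold change was 0.14 in naive cells, 0.23 in Tconv and -0.07 where Treg were given, against 0.02, 0.04 and -0.12 in other distal peaks. In Tconv the share higher differed by distance. Of promoter peaks 0.850% were higher, of peaks at 1 to 10 kb 0.83%, at 10 to 50 kb 1.37%, at 50 to 100 kb 3.11%, at 100 to 200 kb 4.52%, at 200 to 500 kb 7.47% and beyond 500 kb 6.78%, while the share lower stayed between 1.79% and 2.26% in all bins beyond 1 kb. Just inside the threshold 4.10% were higher and 3.19% lower in Tconv, and just outside 3.28% and 0.973%. Within every class of level the share higher in Tconv was larger in far than in other distal peaks, with 7.30% and 2.57% in the lowest and 1.19% and 0.241% in the highest, and likewise in every class of GC content. With Treg the peaks at the naive T cell markers Il7r, Tcf7, Ccr7 and Lef1 had medians of 23.9, 241, 105 and 107 CPM in KO and 56.6, 311, 126 and 115 CPM in WT, and the Il7r peak had 45.8 and 62.6 CPM in Tconv. The part of these markers in the result was not tested.

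The calls in Tconv depended on single libraries. Of far peaks 7.57% were called, and 4.99% without KO replicate 2, 3.84% without KO replicate 3, 3.99% without WT replicate 1 and 3.46% without WT replicate 2. The lower peaks, 122 in number, became 185 when KO replicate 1 was left out, 23 when KO replicate 3 was and 255 when WT replicate 3 was. With Treg 21% were called, and 10.1% without KO replicate 1 (492 higher and 121 lower) and 10.4% without WT replicate 2 (480 and 146). In naive cells DESeq2 called 447 far peaks higher and 0 lower. The 26 called by edgeR became 16 and 14 without KO replicates 2 and 3 and 15 and 13 without WT replicates 2 and 3. Summed by locus, naive HP1γ KO libraries differed from WT in both directions. These counts of loci are a description only, with no share over all loci or all peaks to set beside them. Of the 22 loci counted here with more far peaks opened than closed, every KO library stood above every WT library at 8, below at 3, and the groups overlapped at 11, and of the 26 with more closed than opened at 8, 7 and 11. Among the first, the 17 Itgb1 peaks summed to 19.2, 14.1 and 13 CPM in KO and 9.27, 6.73 and 6.12 in WT, with 128 to 186 CPM in KO Tconv, and the 15 Ikzf2 peaks to 18.4, 15.1 and 9.75 CPM against 8.2, 5.61 and 5.92. The 51 Maf peaks overlapped, with 236, 234 and 217 CPM in KO and 241, 228 and 236 in WT. What part activated cells among the naive ones have in the naive gain was not tested.

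Counted by libraries and not by a test, 224 far peaks (3.70%) had every HP1γ KO library above every WT library in all 3 conditions, against a background of 1.56% of all peaks and 1.30% of other distal peaks, and 36 (0.595%) had every KO library below, against 0.544% and 0.620%. The Hpcal1 peak (chr12:17931111-17932770), in an exon of the noncoding gene Gm59866 and 146 kb from Hpcal1, a calcium sensor gene, led the first group. It had 23.4, 22 and 23.5 CPM in naive KO cells and 10.5, 11 and 11.3 in WT, 31.3, 23.8 and 35.8 against 15, 8.75 and 11.1 in Tconv, and 41.7, 39 and 35.6 against 14.8, 11.7 and 11.6 with Treg. The log2 fold changes were 1.11 ± 0.18, 1.35 ± 0.18 and 1.67 ± 0.19, with adjusted p of 0.00842, 0.000263 and 3.12e-05. Next were a small peak upstream of Supt20, a SAGA subunit gene (chr3:54486901-54487270), with 2.54, 2.53 and 2.71 CPM in naive KO cells and 1.15, 1.04 and 0.864 in WT, and a peak in an exon of Asap2, an ArfGAP gene, 121 kb from its nearest coding start (chr12:21039711-21041210), with 20.4, 13.9 and 18.2 CPM in KO Tconv and 8.29, 6.72 and 7.93 in WT. The Hpcal1 peak and the 3 Asap2 peaks described here and below, all on chromosome 12, were GC-rich, at 63.6 to 70.2%.

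Of peaks lower in all 3 conditions, the Trpm1 peak (chr7:63698001-63700040), in the noncoding gene Gm72116 and nearest to a cation channel gene, had 19.7, 21.4 and 20.4 CPM in naive KO cells and 26, 25.5 and 28 in WT, 9.50, 11 and 10.3 against 14, 13.8 and 13.4 in Tconv, and 6.91, 7.05 and 7.33 against 11, 12.6 and 15.9 with Treg. The differences were small, with log2 fold changes of -0.34 ± 0.09, -0.49 ± 0.11 and -0.74 ± 0.13 and adjusted p of 0.201, 0.0173 and 0.00115, and none was called. The Wwox peak (chr8:115668351-115669290), in an intron of Wwox, had 3.51, 2.99 and 3.12 CPM in naive KO cells against 4.64, 4.78 and 5.81, and 0.809, 1.32 and 1.29 against 2.90, 4.83 and 7.41 with Treg (-1.90 ± 0.33, adjusted p = 0.000801). The last, 101 kb upstream of Btg1, an antiproliferative gene (chr10:96351581-96352350), had 0.996, 1.22 and 1.31 CPM in KO with Treg and 3.02, 5.99 and 4.22 in WT (-1.81 ± 0.30, adjusted p = 0.000687).

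**Figure D5:**
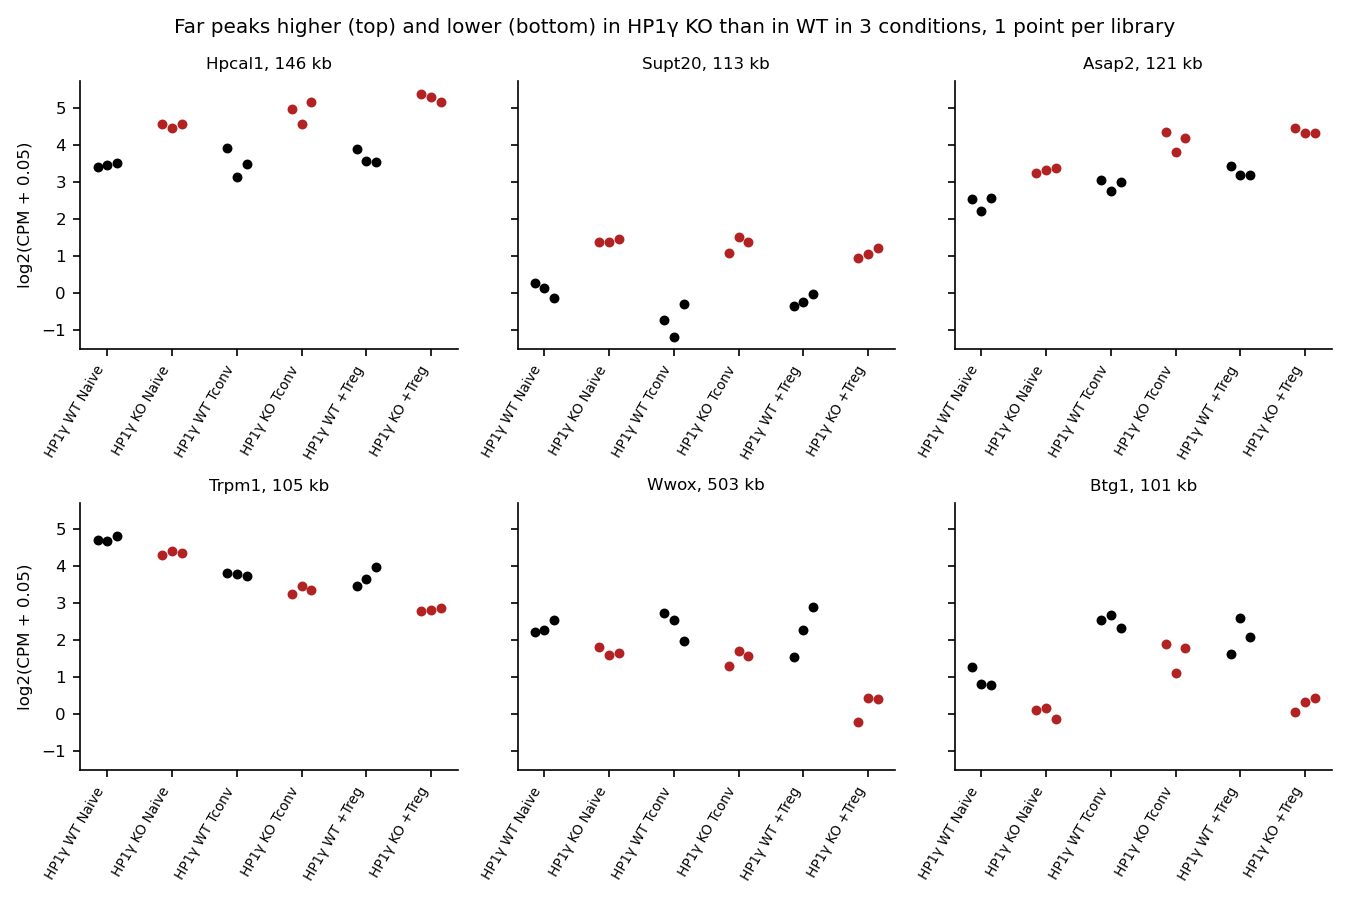
Accessibility as log2(CPM + 0.05) (vertical axis) of the 3 far peaks higher (top row) and the 3 lower (bottom row) in HP1γ KO than in WT in naive cells, Tconv and Tconv with Treg (horizontal axis), 1 point per library, WT black and KO red. KO and WT points of a condition do not overlap in any panel.

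Some far peaks were gained by HP1γ KO cells after transfer from a very low WT level. In Tconv the Fgf9 peak (chr14:58689131-58691000), between genes and 376 kb from a growth factor gene, had 18.8, 18.7 and 21.2 CPM in KO and 2.30, 1.29 and 2.36 in WT (3.26 ± 0.22, adjusted p = 4.09e-08). The En1 peak (chr1:120771361-120772350), 242 kb from the gene of a homeobox factor of the brain, had 10.3, 10.4 and 12.8 CPM in KO and 0.592, 0.504 and 0.885 in WT (4.07 ± 0.30, adjusted p = 1.28e-07). Both stayed higher in KO with Treg, by 2.10 ± 0.21 and 2.68 ± 0.31 on the log2 scale. With Treg the leading peaks were one in an intron of Tmem117 (chr15:94841681-94842280), with 7.92, 9.38 and 5.91 CPM in KO and 0.735, 0.579 and 1.75 in WT (3.29 ± 0.27, adjusted p = 4.97e-07), and one 224 kb from Kcnk9, a potassium channel gene (chr15:72194821-72195680), with 12.8, 12.3 and 15.8 against 1.49, 1.18 and 2.88 CPM (3.13 ± 0.26, adjusted p = 5.57e-07). In naive cells the leading peak was a narrow one 132 kb upstream of Tgfbr2, the TGF-β receptor gene (chr9:116136251-116136530), with 3.25, 2.84 and 3.21 CPM in KO and 0.199, 0.400 and 0.321 in WT (3.36 ± 0.24, adjusted p = 4.62e-07). After transfer it was at 0.533, 0.491 and 0.783 CPM in KO Tconv and 0.26, 0.195 and 0.295 in WT, without overlap but with an adjusted p of 0.0692, and the groups with Treg overlapped.

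Counts by locus for HP1γ KO are given beside the shares of all peaks, 6.48% higher and 5.38% lower with Treg and 1.69% and 1.66% in Tconv. With Treg 26 of 99 far peaks of the heavy chain locus were lower and 0 higher, and the 74 named by Zfp386 summed to 181, 260 and 214 CPM in KO and 312, 294 and 271 in WT. In naive cells the order was turned, with 417, 434 and 385 CPM in KO and 284, 312 and 310 in WT, and in Tconv the groups overlapped. Of the 49 Id2 peaks 17 were lower and 2 higher, of the 69 Bcl11b peaks 13 and 1, of the 37 Wwox peaks 12 and 3, and of the 17 Itgb1 peaks 8 and 1. At Ikzf2 6 of 15 were higher, at Cxcr4 7 of 25 and at Prdm1 5 of 14, with 0 lower at each. In Tconv 5 Ikzf2 peaks were higher and 0 lower, 0 and 2 at Prdm1, and 0 and 0 at Cxcr4. By list, 44 of the 489 far peaks of transcription factor genes were higher with Treg and 60 lower (9.0% and 12.3%, beside 13.9% and 7.11% of all far peaks), 19 and 20 of the 220 of receptor and signalling genes (8.64% and 9.09%), and 14 and 1 of the 79 of gene desert genes (17.7% and 1.27%), of which 10 were higher and 0 lower in Tconv (12.7% and 0, beside 5.56% and 2.02%). In Tconv the first 2 lists had 7 higher and 18 lower (1.43% and 3.68%), and 0 and 5 (0 and 2.27%). A lower peak in Tconv, one of the 2 with the smallest p, was near Bcl11b (chr12:107463211-107463630), 507 kb from the gene, and had 1.54, 1.69 and 1.15 CPM in KO and 4.94, 4.65 and 3.28 in WT (-1.68 ± 0.23, adjusted p = 0.000385). AP-1 letters were in 31.7% of the far peaks higher in KO with Treg and in 8.84% of those lower, NFAT letters in 14.1% and 5.35%, and CTCF letters in 4.30% and 9.07%. For AP-1, NFAT and CTCF in this order, the shares were 16.8%, 8.63% and 7.49% of all far peaks. Of all peaks they were 13%, 6.76% and 9.08%.

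HP1α deletion left nearly all far peaks uncalled in naive cells and Tconv. In naive cells 2 were higher and 0 lower, against backgrounds of 0.0042% and 0.0014% of all peaks, and DESeq2 called 2 higher and 2 lower. An unadjusted p under 0.05 was found for 169 far peaks, beside 835 of all 71509 peaks. Replicate numbers paired these libraries, and with the number as a block 3 were higher and 13 lower. In Tconv 2 were higher and 1 lower, against 0.00839% and 0.0126%. The 2 higher were the same peaks in both conditions, exons of noncoding genes nearest to Asap2. The one at chr12:20864981-20866290, in 1700030C10Rik, had 26.2, 34.1 and 32.6 CPM in naive KO cells and 5.19, 5.18 and 5.42 in WT, and 41, 32.1 and 24.1 against 1.26, 4.06 and 8.54 in Tconv (2.55 ± 0.24 and 3.80 ± 0.35, adjusted p = 0.000147 and 0.00021). KO stood above WT in both without overlap. The one at chr12:20664591-20665540, in Gm49700, had 6.56, 7.49 and 6.56 CPM in naive KO cells and 3.14, 2.01 and 2.31 in WT (1.51 ± 0.19, adjusted p = 0.00589). In HP1γ KO Tconv both were higher too, by 2.14 ± 0.31 and 2.39 ± 0.24. The 1 lower in Tconv was the Zc3h12c peak (chr9:52260061-52261200), in an exon of the noncoding gene Gm47957 and 181 kb from an RNase gene, with 0.574, 0.990 and 1.31 CPM in KO and 3.59, 4.16 and 3.55 in WT (-2.08 ± 0.28, adjusted p = 0.00333). The count in Tconv went from 3 to 33 without KO replicate 1, to 1 without WT replicate 1 and to 6 without WT replicate 2, and in naive cells from 2 to 4 without KO replicate 2 and to 1 without WT replicate 3.

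With Treg, where 1 HP1α KO library was set against 2 of WT, 12 far peaks (0.198%) were higher in KO and 204 (3.37%) lower, against backgrounds of 0.218% and 1.42% and 0.188% and 1.41% of other distal peaks, with median log2 fold changes of -0.49 and -0.13. The Pax5 peak had 5.47 CPM in the KO library and 13.9 and 21.5 CPM in WT, the CD4 T cell marker peaks summed to 455 against 275 and 327 CPM, and the Il7r peak had 61.1 CPM against a median of 27.9, and their part in the result was not tested. The spread was taken from the other groups, and the single KO library is assumed to vary as they do. The share called fell from 3.57% to 0 without WT Treg replicate 1 and to 1.95% without replicate 2. With log2 depth as a covariate 0 were higher and 8 lower, with the earlier quasi-likelihood fit 4 and 3, and with only the groups compared 0 were called. With all 18 libraries 1 was higher and 109 were lower, against 0.0126% and 0.729% of all peaks, and 0 were called without WT Treg replicate 1 and 1 without KO Treg replicate 1. The strongest was the Arl4a peak, with 0.276 CPM in the KO library and 8.43 and 8.08 in WT (-4.88 ± 0.48, adjusted p = 3.86e-05), but the left-out libraries had 2.39 and 2.62 CPM in KO and 1.25 in WT, so that the groups overlap once they are counted. The Zc3h12c peak had 3.28 CPM in KO, with 3.93 and 3.67 in the left-out libraries, and 21.6 and 26.9 CPM in WT, with 14.1 in the left-out one (-2.73 ± 0.30, adjusted p = 0.000158). There the 3 KO libraries lay below the 3 WT libraries.

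The KO effects of the 2 lines share no library and can be set side by side for the peaks that each chose. Of the 204 far peaks lower in HP1α KO with Treg, 170 (83.3%) were called higher and 0 lower in HP1γ KO with Treg, with a median log2 fold change of 1.63. Of the 838 higher in HP1γ KO with Treg, those 170 are 20.3%, 1 was called higher in HP1α KO, and the median there was -1.65. Other distal peaks chosen in the same way gave 82.2% and 17.6%, so that far peaks do not stand out in this. Of all peaks 6.48% were called higher in HP1γ KO with Treg, and the share lower in HP1α KO with Treg is given above. Of the same 838, 526 (62.8%) were called higher and 48 (5.73%) lower on activation in the HP1α line, beside 24.9% and 17.5% of all peaks and 68.5% and 4.11% of other distal peaks chosen in the same way. Of the 430 lower in HP1γ KO with Treg, 142 (33%) were higher and 156 (36.3%) lower there, beside 37.9% and 26.1% of such other distal peaks. Of the 596 far peaks higher with Treg in HP1α WT, 376 (63.1%) were called higher with Treg in HP1γ KO and 0 lower. The share higher was 60.3% of other distal peaks chosen in the same way and 6.1% of all peaks.

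Whether genotype changed the activation or Treg effect was tested by the interaction of both. In the HP1α line 8 far peaks passed the adjusted p for Treg, against a background of 0.0461% of all peaks (33 peaks), and 0 for activation, with 144 at an unadjusted p under 0.05. In the HP1γ line 2 far peaks passed for activation, against 0.0154% of all peaks (11 peaks), and 0 for Treg, with 942 at an unadjusted p under 0.05. Most effects that were called in 1 genotype and not in the other are therefore not shown to differ between genotypes.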

How the data were processed

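ATAC-seq libraries of 12 groups with 3 replicates each were analysed. The authors trimmed reads with Trim Galore 0.6.7, aligned them to GRCm39 with BWA-MEM2, called peaks in each sample with HMMRATAC, merged them, and counted reads with featureCounts 2.0.3. The deposited table holds these raw counts, 1 column per library, and 0 columns of other samples. Of 71512 intervals 3 had no width and were left out, and 1 is not in the deposited peak list. Groups came from the labels, and the meaning of the replicate number is not given in the sources used here.

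Counts were fitted per line with edgeR 4.0.16 (quasi-likelihood test, TMM, filterByExpr, 1 mean per group) over all peaks, in 15 HP1α libraries (71509 peaks tested) and 18 HP1γ libraries (71508 tested), with Benjamini-Hochberg adjustment. All 6047 far peaks passed the filter on low counts in both fits. A standard error is the log2 fold change divided by the root of the test's F. Calls needed a p of under 0.05 after adjustment and a log2 fold change beyond 1 in size. CPM values are scaled to the reads in peaks of a library. The log2 CPM behind the median levels, the classes of level and the rule on overlap was also scaled by TMM within each line, with a prior count of 2. TSS, genes and sequences come from GENCODE vM39 and GRCm39, and all contigs fitted that build. The fits were tested on simulated data with known changes.

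The far peaks, the gene lists and the comparisons were chosen with earlier results of these data known. Named are, for each of the 12 comparisons, the 2 called far peaks with the smallest p in each direction among those without overlap between groups, 5 per direction called in both lines on activation, 3 per direction for HP1γ KO without overlap in all 3 conditions, the 3 with most reads per kb in naive WT cells and in WT Tconv, the most distant peak, the 10 genes with most far peaks and list genes with at least 3. Not all of them are described in the text, and 2 marker genes are not reported here. Alternatives were DESeq2 1.42.0, no filter on low counts, GC offsets, the replicate number as a block, log2 depth as a covariate, all 18 HP1α libraries, other distances, TSS of all genes, and each library left out. Replicate numbers paired the libraries, with correlations of deviations over 0.1 in every pair, for the Treg effect in HP1γ WT (0.20 to 0.29), HP1α KO in naive cells (0.25 to 0.51) and HP1γ KO with Treg (0.15 to 0.32). Precision rests on the counts, and libraries of few reads carry more error.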

Additional observations from a re-analysis of the deposited data

Results flagged for a closer look

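Several named far peaks moved in opposite directions under the same contrast in the 2 lines, or differed between genotypes in the test of the interaction. Differences between the lines themselves were not tested, and every HP1α value with Treg rests on 1 KO and 2 WT libraries.

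For the interaction of genotype and Treg in the HP1α line, the Arl4a peak gave a log2 difference of -4.28 (adjusted p = 0.0399) and the Aimp1 peak -1.92 (adjusted p = 0.049), both with a larger Treg effect in WT than in KO. For the interaction of genotype and activation in the HP1γ line, the Sdk1 peak gave 1.63 (adjusted p = 0.0275). It fell on activation from 12.4, 13.9 and 12 to 1.89, 1.29 and 1.47 CPM in WT and from 13.7, 13.4 and 11.8 to 4.64, 5.43 and 5.35 CPM in KO, so that KO kept more of it open.

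The Arl4a peak was lower in HP1α KO with Treg (-4.88) and higher in HP1γ KO with Treg (2.07, adjusted p = 0.00105). At the Arl4a peak the HP1α KO and WT groups with Treg overlap once the left-out libraries are counted. The Zc3h12c peak was lower in HP1α KO and higher in HP1γ KO, both in Tconv (-2.08, adjusted p = 0.00333, and 1.2, adjusted p = 0.0119) and with Treg (-2.73, adjusted p = 0.000158, and 2.07, adjusted p = 6.25e-06). The Btg1 peak was higher in HP1α KO with Treg (3.59, adjusted p = 0.0446) and lower in HP1γ KO with Treg (-1.81, adjusted p = 0.000687), but the left-out HP1α WT library had 7.19 CPM, above the 3 KO libraries at 4.20, 5.75 and 2.97.

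For 5 further peaks with Treg only the HP1γ value passed the adjusted p. They were Tmem117 (-0.98, adjusted p = 0.695, in HP1α KO and 3.29, adjusted p = 4.97e-07, in HP1γ KO), Kcnk9 (-2.03, adjusted p = 0.0944, and 3.13, adjusted p = 5.57e-07), Id2 (1.0, adjusted p = 0.647, and -2.02, adjusted p = 0.000147), Lemd2 (1.30, adjusted p = 0.15, and -1.31, adjusted p = 0.000333) and Trpm1 (0.13, adjusted p = 0.873, and -0.74, adjusted p = 0.00115). With Treg the Ube2e3 peak fell in HP1γ WT (-1.30, adjusted p = 0.0308), while the HP1α WT value, 1.27, did not pass (adjusted p = 0.566).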

How the results depend on the processing

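Values are percents of far peaks called. For activation the share called in all moved by less than 1.5 times under every alternative (62.2% in the HP1α line, 53 to 60.9% with 1 library left out, and 65.3% in the HP1γ line, 62.5 to 65.6%), but in the HP1α line the 1863 lower became 1087 without WT Tconv replicate 1 and 1391 with DESeq2. The Treg effect in HP1α WT, 11.5%, became 5.70% with the replicate block, 4.13% with log2 depth as a covariate, 23.1% with all 18 libraries and the replicate block, 0 to 14% with 1 library left out, and with all 18 2.55% without WT Tconv replicate 1 and 0.0165% without WT Treg replicate 1. In HP1α KO, 0.827% became 0.290% with DESeq2, 2.2% with all 18 libraries, 1.44% with the replicate block added, 0 with only the groups compared or with the earlier quasi-likelihood fit, and 2.42% by TSS of all genes (left-out libraries 0.843 to 1.46%, and with all 18 1.14 to 26.2%, 26.2% without KO Treg replicate 1, 1.27% without KO Treg replicate 2, 7.09% without KO Tconv replicate 3 and 1.37% without KO Treg replicate 3). In HP1γ WT, 0.265% became 7.01% with DESeq2, 0.513% with GC offsets, 11.1% with the replicate block (587 higher and 63 lower), 0 with the depth covariate and by TSS of all genes, 2.2% with the earlier fit and 0.135% beyond 200 kb (left-out 0 to 1.98%). In HP1γ KO, 15.9% became 0 with the replicate block and 8.75% with the earlier fit (left-out 6.30 to 23.3%).

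HP1α KO in naive cells, 0.0331%, became 0.0662% with DESeq2, 0.0661% with GC offsets, 0.306% with the replicate block (3 higher and 13 lower), 0 with the earlier fit and by TSS of all genes, and 0.0902% beyond 200 kb (left-out 0.0165 to 0.0661%). In Tconv, 0.0496% (3 of 6047) became 0.155% with DESeq2 (4 of the 2575 with an adjusted p), 0.287% with the replicate block, 0.0165% with the earlier fit, 0.0316% beyond 50 kb, 0.0902% beyond 200 kb and 0 by TSS of all genes (left-out 0.0165 to 0.546%). With Treg, 3.57% became 0.132% with the depth covariate, 1.82% with all 18 libraries, 0 with only the groups compared and 0.116% with the earlier fit (left-out 0 to 1.95%, and with all 18 0 to 2.43%, 1.92% without KO replicate 3 and 1.37 and 2.03% without WT replicates 2 and 3). HP1γ KO in naive cells, 0.430%, became 7.39% with DESeq2 (447 higher, 0 lower), 7.84% with the replicate block (418 and 4) and 1.41% with the earlier fit (left-out 0.215 to 0.331%). In Tconv, 7.57% became 4.68% with the earlier fit and 13.3% by TSS of all genes (left-out 3.46 to 9.99%). With Treg, 21% became 10.1 to 27.5% with 1 library left out, and 25.6% with the replicate block. DESeq2 also changed the split between higher and lower for the Treg effect in HP1α WT (587 and 259), in HP1γ WT (399 and 25, and 13 and 18 with GC offsets) and for HP1α KO with Treg (65 and 195).

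The causes of these moves were not tested. For named peaks 853 values kept direction and side of the threshold, 101 kept direction only, 2 passed it newly and 0 turned. The earlier quasi-likelihood fit, the replicate block or left-out libraries with all 18 and the distal peaks beyond 10 kb were chosen after seeing the data. No replicate block could be fitted to the kept libraries for the Treg effect in HP1α KO and for HP1α KO with Treg, nor could the single HP1α KO library with Treg be left out. Depth limits the HP1α WT group with Treg most, since its replicate 2 had 1.49 M reads and 1051 far peaks at 0. The single kept HP1α KO library with Treg had 50.7 M reads.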

Other observations

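Smaller groups of far peaks were counted on activation, beside 21.5% of all peaks and 26.6% of far peaks opened and 16.4% and 29.2% closed. The nearest coding genes were Irf8, an interferon regulatory factor gene, with 4 of 4 far peaks opened, Tnfsf11 (RANKL) with 3 of 3, Themis, a regulator of T cell receptor signalling, with 3 of 3, and Ahr, the aryl hydrocarbon receptor gene, with 7 of 9 opened and 1 closed. Bcl6, the follicular helper T cell factor gene, had 0 of 13 opened and 3 closed, and of the 14 far peaks of Ifng, the interferon gamma gene, 7 opened and 2 closed. These counts were chosen with the results known.

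Far peaks that fell in HP1γ KO Tconv were mostly ones that open on activation in the HP1α line. Of these 122 peaks 81 (66.4%) opened there and 7 (5.74%) closed, against 71.1% and 3.23% of the other distal peaks chosen in the same way. Of the 336 that rose, 199 (59.2%) opened and 48 (14.3%) closed, against 59.2% and 12%. Of the 224 far peaks above WT in all 3 HP1γ conditions, 138 (61.6%) opened in the HP1α line and 16 (7.14%) closed, beside 24.9% and 17.5% of all peaks.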
